A study of Mus musculus with 6 samples.

Results

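Bcl2, Bcl2l1, Mcl1, Bcl2a1b, Bax, Bak1, Bcl2l11, Bid, Bbc3 and Pmaip1 are 10 mouse genes of the BCL2 family, and their transcripts were followed here through 3 subsets of common dendritic cell progenitors. They were taken by gene symbol from the deposited gene tables, where they are 10 of the 16135 genes listed in any library. These progenitors live in bone marrow and are named for the dendritic cells they produce. They came from wildtype C57BL/6 mice 6 to 8 weeks old and were sorted by flow cytometry on Ly6C, the product of Ly6c1 and Ly6c2, and on CD115, the receptor that Csf1r encodes. Of each subset, CD115+Ly6C-, CD115+Ly6C+ or CD115-Ly6C-, there were 2 libraries of polyadenylated RNA, and all were untreated as far as the labels say. Whether the 2 libraries of a subset stem from different animals or sorts is not stated in the labels, so the p-values below measure only the spread between these libraries, which may be technical.

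The BCL2 family sets whether the outer mitochondrial membrane of a cell is opened during apoptosis. Bax and Bak1 encode the effectors that form the pores. Bcl2, Bcl2l1 (BCL-XL), Mcl1 and Bcl2a1b (a copy of A1, also called BFL-1) encode pro-survival proteins that hold the effectors and their activators in check. Bcl2l11 (BIM), Bid, Bbc3 (PUMA) and Pmaip1 (NOXA) encode BH3-only proteins, which share with the others a single short helix, bind the pro-survival proteins and, in the case of BIM, BID and PUMA, also activate the effectors directly. In blood cell development, cytokine signals support survival in part through MCL1, BCL-XL and BCL2, and withdrawal of cytokines acts in part through BIM and PUMA. BID and MCL1 are regulated heavily at the protein level, BID by cleavage and MCL1 by rapid turnover, which RNA does not show.

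The libraries held 17961541 to 19450329 expected counts. The genes of a 9-gene marker list for the labelled progenitors, Flt3, Csf1r, Kit and Irf8 among them, were all detected in each library, with a summed level of 1450 to 2180 FPKM (fragments scaled to transcript length and library size). Csf1r was at 109.78 and 137.76 FPKM in CD115+Ly6C-, at 142.4 and 133.35 FPKM in CD115+Ly6C+ and at 62.76 and 74.23 FPKM in CD115-Ly6C-, so the subset sorted as lacking the protein still held its transcript. Ly6c2 was at 184.97 and 289.16 FPKM, at 2116.55 and 2005.24 FPKM and at 70.36 and 101.18 FPKM in the same order. Late neutrophil granule genes were present throughout, none of the 12 on the list being at 0 in any library. Their summed level was 515 and 2030 FPKM in the CD115+Ly6C- libraries, 10100 and 9240 FPKM in the CD115+Ly6C+ libraries and 801 and 372 FPKM in the CD115-Ly6C- libraries. Summed levels of 7 monocyte genes were 1330 and 1600, 4890 and 5040, and 634 and 731 FPKM, with none of them at 0 in any library. Those of 6 plasmacytoid dendritic cell genes were 388 to 527 FPKM in the CD115+ libraries and 1030 and 1110 FPKM in the CD115-Ly6C- libraries. Most of the latter was Ly6d, at 618.16 and 689.97 FPKM there and 41.74 to 170.2 FPKM in the CD115+ libraries. Siglech and Ccr9 were also higher in CD115-Ly6C-. Bst2, at 272.6 and 280.64 FPKM there and 251.84 to 347.29 FPKM in the CD115+ libraries, was not, nor was Klra17. Those of 6 conventional dendritic cell genes were 39.2 and 39.8 FPKM in CD115+Ly6C-, 106 and 137 FPKM in CD115+Ly6C+ and 44.9 and 51.2 FPKM in CD115-Ly6C-. Most of the last was H2-Ab1, at 30.6 and 37.46 FPKM there and 12.11 and 12.33 FPKM in CD115+Ly6C-. Cd209a went the other way, at 2.22 and 2.78 FPKM against 10.86 and 8.95 FPKM. So did Clec9a, at 2.45 and 2.4 FPKM against at least 9.44 FPKM. Between these subsets Itgax was higher in CD115-Ly6C-, and the libraries of Zbtb46 and Xcr1 overlapped. Of 9 listed B lineage genes, Cd79a and Ebf1 reached at most 1.33 and 0.09 FPKM in the CD115+ libraries. In CD115-Ly6C- they were at 13.04 and 10.26 and at 1.61 and 1.62 FPKM. Cd79b of the same list was at 77.71 to 87.76 FPKM across all libraries. Vpreb1 (2.21 to 11.38 FPKM), Vpreb3 (2.42 to 5.82 FPKM) and Igll1 (0.82 to 4.73 FPKM) were also detected in every library. Pax5, which defines that lineage, was at 0 in 5 libraries and 0.11 FPKM in the other. Of 7 listed T and NK cell genes, up to 3 were at 0 in a library and Cd3e, Cd3d, Cd3g and Ncr1 reached at most 0.55 FPKM, while Nkg7 alone was at 37.87 to 107.77 FPKM in the CD115+ libraries and 229.75 and 235.5 FPKM in CD115-Ly6C-. The neutrophil, monocyte and dendritic cell sums, most progenitor markers, Cd79a, Ebf1 and Nkg7 thus moved with the subsets compared below. Their part in the results for the BCL2 family was not tested. In such bulk samples, fewer cells of a type and less RNA per cell cannot be told apart.

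Bcl2a1b carries the least certain value among the family genes, and part of its sequence is shown because its copies differ at few bases. The mouse has several near-identical copies of the A1 gene on chromosome 9. Over 516 coding bases, Bcl2a1b was 98.8% identical to Bcl2a1d and 97.9% identical to Bcl2a1a in GENCODE vM21 (GRCm38). All 3 were identical except at 12 positions, 6 of which lie in the first 90 coding bases. Those 90 bases, from the start codon and 5′ to 3′, are printed with the positions that differ between copies in capitals.
Bcl2a1a: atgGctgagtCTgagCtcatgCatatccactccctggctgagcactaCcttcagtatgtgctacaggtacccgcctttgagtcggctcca
Bcl2a1b: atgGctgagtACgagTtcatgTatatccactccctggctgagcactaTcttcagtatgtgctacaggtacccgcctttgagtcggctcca
Bcl2a1d: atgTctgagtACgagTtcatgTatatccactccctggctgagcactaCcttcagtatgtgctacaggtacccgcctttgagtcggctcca
Of the 50-base windows in protein-coding Bcl2a1b transcripts, 79.2% also occur in transcripts of other genes, mainly Bcl2a1d, Bcl2a1a and the overlapping model Gm29094. Windows were compared on both strands, since no label says whether the kit kept the strand. The share was 17.8% for Bak1, whose exons overlap those of Ggnbp1 on the opposite strand, 9.89% for Bax, whose exons overlap those of the same-strand model Gm45808, 5.25% for Bcl2 and 0.158% for Bcl2l11. It was 0 for Bcl2l1, Mcl1, Bid, Bbc3 and Pmaip1. Over all transcripts of Bid, coding or not, 17.7% of the exonic bases overlap Bcl2l13 on the opposite strand.

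Of the 10 genes, 4 differed between the subsets CD115+Ly6C+ and CD115-Ly6C-, and 39.3% of all genes tested did so too. Bax and Bid were the ones higher in CD115+Ly6C+ and Bcl2l1 and Bcl2l11 the ones lower. Each of these pairs shared a direction in this comparison, and their promoters (RefSeq, GRCm38.p6) are printed. Whether the genes of a pair share regulation was not tested. The promoters run 5′ to 3′ on the strand of the gene, from 250 bases before to 50 bases after the start. Matches to searched motifs are in capitals. The motifs, searched on both strands, were the E-box CANNTG, the GC box GGGCGG, the CCAAT box, the forkhead motif TGTTTAC, the C/EBP motif TTGCNNAA, a p53 core pair (CATG, 6 bases of any kind, CATG) and a PU.1 motif GAGGAAGT.
Bax, chr7:45466849-45467148, minus strand: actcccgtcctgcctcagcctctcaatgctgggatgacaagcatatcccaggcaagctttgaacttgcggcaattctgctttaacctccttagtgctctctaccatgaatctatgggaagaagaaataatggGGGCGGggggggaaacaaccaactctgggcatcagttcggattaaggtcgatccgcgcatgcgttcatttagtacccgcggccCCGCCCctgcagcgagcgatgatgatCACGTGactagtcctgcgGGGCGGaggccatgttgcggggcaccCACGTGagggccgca
Bid, chr6:120916775-120917074, minus strand: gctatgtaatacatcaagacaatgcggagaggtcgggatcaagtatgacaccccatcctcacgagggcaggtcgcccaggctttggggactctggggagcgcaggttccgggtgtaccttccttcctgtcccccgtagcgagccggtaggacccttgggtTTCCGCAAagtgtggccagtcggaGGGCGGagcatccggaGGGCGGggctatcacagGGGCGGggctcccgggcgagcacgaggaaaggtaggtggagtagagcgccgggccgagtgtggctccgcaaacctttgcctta
Bcl2l1, chr2:152831679-152831978, minus strand, outermost of 3 starts: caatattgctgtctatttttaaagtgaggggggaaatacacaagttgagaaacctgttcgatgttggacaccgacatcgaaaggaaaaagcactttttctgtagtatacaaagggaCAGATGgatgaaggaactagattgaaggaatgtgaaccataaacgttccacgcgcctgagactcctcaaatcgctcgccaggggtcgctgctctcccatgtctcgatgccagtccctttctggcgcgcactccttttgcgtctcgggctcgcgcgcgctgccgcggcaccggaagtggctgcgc
Bcl2l11, chr2:128125788-128126087, plus strand, outermost of 2 starts: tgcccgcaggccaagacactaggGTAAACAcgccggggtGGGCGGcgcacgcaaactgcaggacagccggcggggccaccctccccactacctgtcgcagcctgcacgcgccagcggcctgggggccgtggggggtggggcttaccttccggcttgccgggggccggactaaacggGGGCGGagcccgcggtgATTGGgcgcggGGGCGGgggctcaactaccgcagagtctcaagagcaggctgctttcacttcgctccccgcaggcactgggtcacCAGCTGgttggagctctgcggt
The Bax promoter held 2 E-boxes and 3 GC boxes, and the Bid promoter held 3 GC boxes and 1 C/EBP match. The Bcl2l1 promoter held 1 E-box. The Bcl2l11 promoter held 1 E-box, 3 GC boxes, 1 CCAAT box and 1 forkhead match. Among all 32851 promoters of the same length, an E-box was found in 72.3%, a GC box in 35.7%, a CCAAT box in 37.4%, a C/EBP match in 10.8% and a forkhead match in 3.65%. No p53 core pair, which 0.712% of promoters hold, and no PU.1 match, which 3.2% hold, occurs in these 4 windows. The GC content was 57.3% for Bax, 63.3% for Bid, 52.3% for Bcl2l1 and 71.0% for Bcl2l11.

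The levels of the 10 genes ran from 0.49 FPKM, for Bbc3, to 166.35 FPKM, for Bid, on a scale that is per length and so can be set between genes. Bid, Bax and Bcl2 were the highest, in this order of means, in every subset. In CD115+Ly6C-, Bid averaged 158 ± 11.9, Bax 124 ± 11.1 and Bcl2 57.9 ± 2.05 FPKM (SD, n = 2), and no library of one reached the level of the next. In the other 2 subsets the libraries of Bid and Bax overlapped, so their order there is not beyond the spread. A middle group of Pmaip1, Mcl1 and Bcl2l1 followed at means of 7.47 to 15.9 FPKM. Neighbours in this group overlapped in part: Pmaip1 and Mcl1 in all 3 subsets, and Mcl1 and Bcl2l1 in CD115+Ly6C-. Bak1, Bcl2a1b, Bcl2l11 and Bbc3 came last, at means of 0.51 to 4.2 FPKM. Bbc3 was the lowest in CD115+Ly6C- and CD115-Ly6C-, and Bcl2l11 was the lowest in CD115+Ly6C+, where its libraries lay below those of Bbc3. In CD115-Ly6C-, the libraries of Bbc3 and its neighbour Bcl2a1b overlapped.

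**Figure D1:**
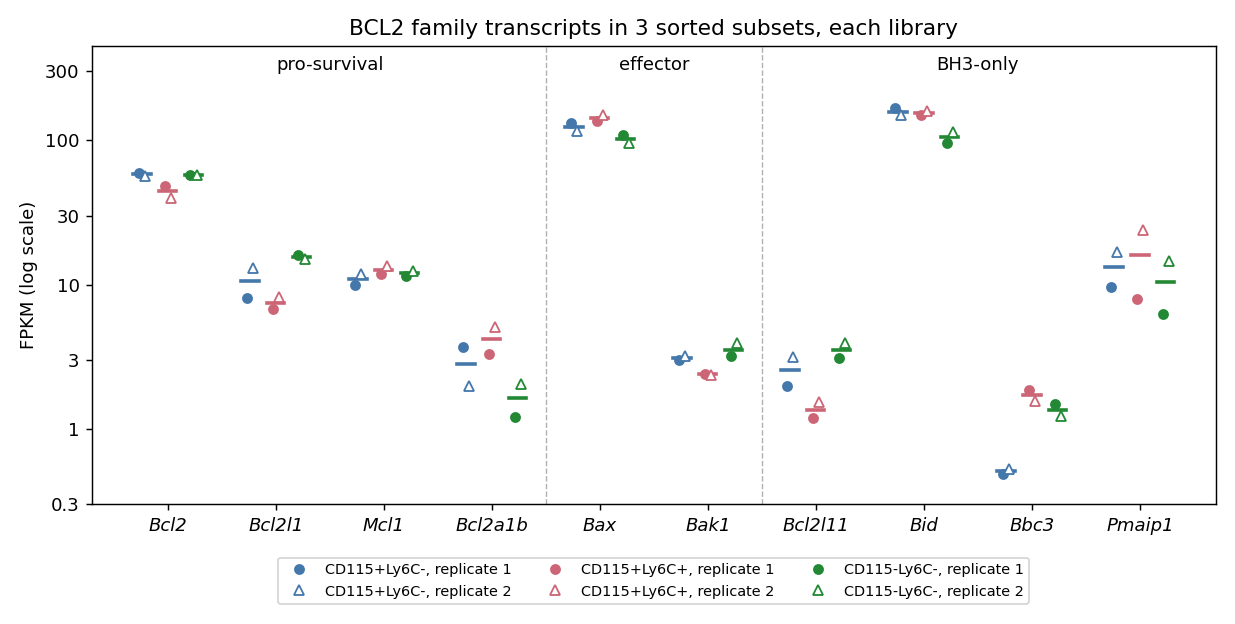
FPKM (log scale) of the 10 BCL2 family genes, grouped by role, in each library. Colours are the 3 subsets, filled circles replicate 1, open triangles replicate 2 and short bars the mean. Bid, Bax and Bcl2 lie above the other 7 genes in each library, and the open triangle of Pmaip1 lies above the filled circle in every subset.

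Compared over all genes, the family stood near the background in each of the 3 comparisons. All 10 genes passed the filter on low counts. Between CD115+Ly6C+ and CD115+Ly6C-, 1 of the 10 (10%) passed an adjusted p of 0.05 in edgeR's quasi-likelihood test, against 9.60% of the 12127 genes tested (5.26% higher, 4.34% lower). At an unadjusted p under 0.05 there were 4, against 27.9% of all genes. In CD115-Ly6C- against CD115+Ly6C-, 1 of 10 passed, against 15.2% of all genes (8.43% higher, 6.78% lower), with 3 at an unadjusted p under 0.05 against 32.2%. Between CD115+Ly6C+ and CD115-Ly6C-, the pair in which most genes differed, 4 of 10 (40%) passed against the 39.3% above, with 5 at an unadjusted p under 0.05 against 48.8%. The median log2 fold change of the 10 genes was 0.17, -0.11 and 0.4 in this order of comparisons, beside -0.01, 0.02 and -0.03 over all genes. Under library totals the medians of the 10 genes were 0.1, 0.01 and 0.21, and those of all genes moved with them to -0.08, 0.14 and -0.22. In limma on log2(FPKM + 1) they were 0.05, 0.06 and 0.14, beside -0.05, 0.1 and -0.16 over all genes. With the trend over gene length removed the first was 0.0, beside -0.01 over all genes. The libraries of the 2 subsets did not overlap in FPKM for 6, 4 and 8 of the 10 genes, against 57.6%, 61.9% and 73.6% of all genes. The 3 comparisons share libraries, so a low or high library enters 2 of them.

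**Figure D2:**
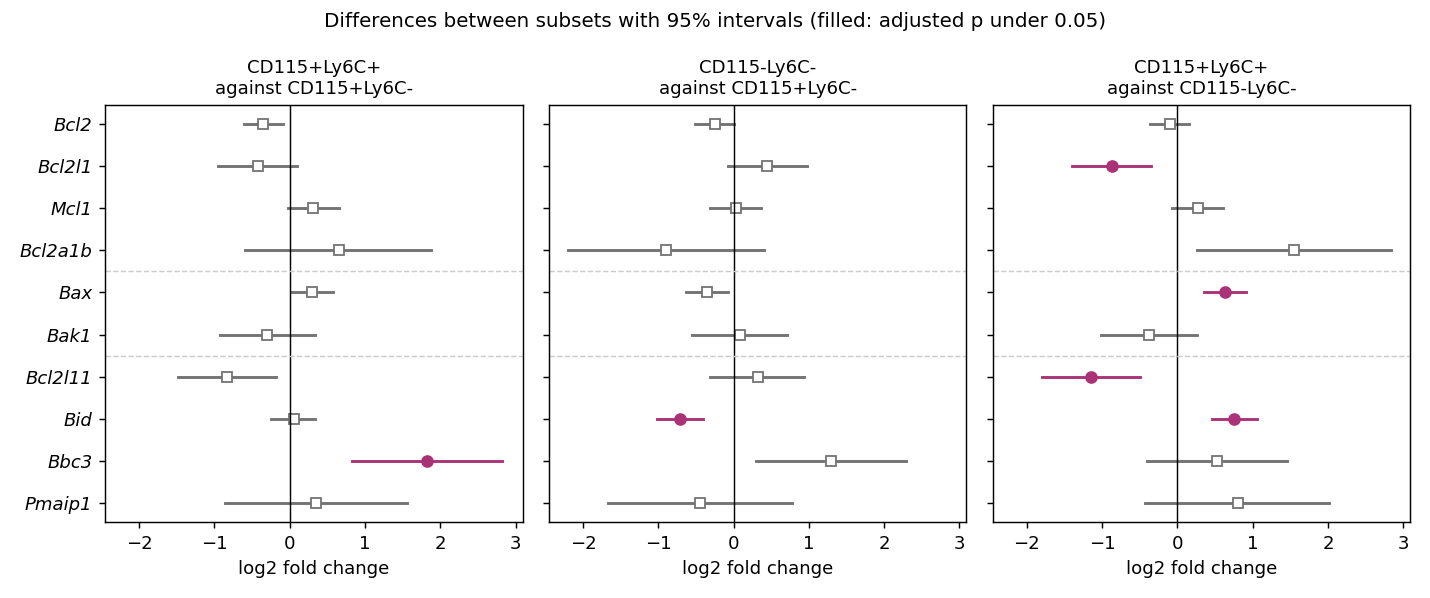
Log2 fold change (points) with its 95% interval (lines) for each gene in the 3 comparisons between subsets. Filled points have an adjusted p under 0.05: Bbc3 in the left panel, Bid in the middle panel, and Bcl2l1, Bax, Bcl2l11 and Bid in the right panel.

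Among the pro-survival genes, Bcl2 was the most abundant and Bcl2l1 was the one with a called difference. Bcl2 (chr1:106538176-106714290, minus strand), the founding member of the family, made up 59.8% to 73.2% of the FPKM summed over the 4 genes. Its level was 59.38 and 56.48 FPKM in the CD115+Ly6C- libraries, 48.57 and 39.94 FPKM in the CD115+Ly6C+ libraries and 57.69 and 57.25 FPKM in the CD115-Ly6C- libraries. The CD115+Ly6C+ libraries were the lowest, with no overlap with either other subset on this scale. Against CD115+Ly6C-, the difference did not pass the threshold (log2 fold change -0.35, SE 0.11, 95% interval -0.61 to -0.09, edgeR adjusted p = 0.0876). It passed in DESeq2, with an adjusted p of 0.0419, and just passed when counts were scaled by library totals alone. In the other 13 alternatives it did not, and with the trend over gene length removed the value was -0.15 (adjusted p = 0.451). Against CD115-Ly6C-, the value depended on the unit. On counts scaled by TMM (edgeR's trimmed mean scaling), the level was 291 ± 31.9 CPM (counts relative to the scaled library size) in CD115+Ly6C+ and 311 ± 16.2 CPM in CD115-Ly6C- (SD, n = 2), the libraries overlapped, and the log2 fold change was -0.1 (edgeR adjusted p = 0.523). On log2(FPKM + 1) the difference was -0.38 and passed in limma (adjusted p = 0.0271).

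Bcl2l1 (chr2:152758732-152833803, minus strand) was lower in CD115+Ly6C+ than in CD115-Ly6C-. The CD115+Ly6C+ libraries, at 6.75 and 8.19 FPKM, lay below those of CD115-Ly6C-, at 16.06 and 15.08 FPKM. The CD115+Ly6C- libraries, at 8.06 and 13.06 FPKM, lay apart from each other, the lower one inside the range of CD115+Ly6C+ and the higher one below both CD115-Ly6C- libraries. The fold was 1.83 (log2 fold change -0.87, SE 0.23, 95% interval -1.4 to -0.35, edgeR adjusted p = 0.0169). Leaving out CD115+Ly6C+ replicate 1 ended this call (adjusted p = 0.0885), and so did leaving out CD115-Ly6C- replicate 1 (adjusted p = 0.0508). Neither comparison with CD115+Ly6C- passed (edgeR adjusted p = 0.268 for CD115+Ly6C+ and 0.209 for CD115-Ly6C-).

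Mcl1 (chr3:95656944-95663179, plus strand), whose product is needed by many blood progenitors, varied least of the 10 genes, its highest library being 1.36 times its lowest. It was at 9.95 and 11.76 FPKM in CD115+Ly6C-, at 11.85 and 13.53 FPKM in CD115+Ly6C+ and at 11.53 and 12.43 FPKM in CD115-Ly6C-. No comparison passed. The 95% interval of the log2 fold change was -0.03 to 0.65 for CD115+Ly6C+ against CD115+Ly6C-, -0.31 to 0.37 for CD115-Ly6C- against CD115+Ly6C-, and -0.07 to 0.61 for CD115+Ly6C+ against CD115-Ly6C-. These are the differences that the 6 libraries leave possible.

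Bcl2a1b (chr9:89199273-89207838, plus strand) was listed at 3.71 and 1.97 FPKM in CD115+Ly6C-, at 3.3 and 5.09 FPKM in CD115+Ly6C+ and at 1.21 and 2.06 FPKM in CD115-Ly6C-. These levels rest on few reads, 13 to 54 expected counts per library. The 2 CD115+Ly6C+ libraries were above both CD115-Ly6C- libraries, and the difference did not pass (log2 fold change 1.55, SE 0.57, 95% interval 0.26 to 2.84, edgeR adjusted p = 0.0582). With the counts of the 4 A1 copies summed, it did (log2 fold change 1.44, edgeR adjusted p = 0.0337). Without summing, it also passed with no filter on low counts and in limma on log2(FPKM + 1) and log2(FPKM + 0.1). These were 4 of 16 alternatives, and the rest did not pass, DESeq2 and the fit with the length trend removed among them. Over all 16 the log2 fold change ran from 0.98 to 2.0. Of the other copies, Bcl2a1d was at 0.33 to 2.49 FPKM, Bcl2a1a at 0 to 0.57 FPKM and Bcl2a1c at 0 to 0.2 FPKM. How the reads divide among the copies is an estimate of the authors' counting, on which their sum does not depend. The sum was fitted only with all 6 libraries, so how far its call holds without a library was not tested.

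Bax (chr7:45461695-45466903, minus strand) was the dominant effector transcript, and CD115+Ly6C+ held more of it than CD115-Ly6C-. It was at 131.34 and 115.68 FPKM in CD115+Ly6C-, at 135.94 and 150.72 FPKM in CD115+Ly6C+ and at 108.34 and 95.61 FPKM in CD115-Ly6C-, so the 3 subsets did not overlap. Bax accounted for 96.1% to 98.4% of the summed FPKM of Bax and Bak1. The fold between CD115+Ly6C+ and CD115-Ly6C- was 1.55 (log2 fold change 0.63, SE 0.12, 95% interval 0.35 to 0.91, edgeR adjusted p = 0.00454). The call held whichever library was left out, with adjusted p of 0.00732 to 0.0346. Against CD115+Ly6C-, neither CD115+Ly6C+ (log2 fold change 0.29, edgeR adjusted p = 0.17) nor CD115-Ly6C- (log2 fold change -0.35, edgeR adjusted p = 0.0924) passed.

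Gene length moved with the same comparison, and Bax is a short gene of 923 nt in the deposited tables. Among the shortest 25% of genes (235 to 1773 nt), the median log2 fold change of CD115+Ly6C+ against CD115-Ly6C- was 0.34, and among the longest 25% (4180 to 21727 nt) it was -0.31. The 734 genes within 1.2-fold of the length of Bax had a median of 0.46, beside the 0.63 of Bax. With the trend over length removed from each library, the difference of Bax fell to 0.21 and did not pass (edgeR adjusted p = 0.235). Bid, Bcl2l1 and Bcl2l11 were still called in that fit. The value of Bcl2, a long gene of 6287 nt, turned from -0.1 to 0.22 (adjusted p = 0.151).

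**Figure D3:**
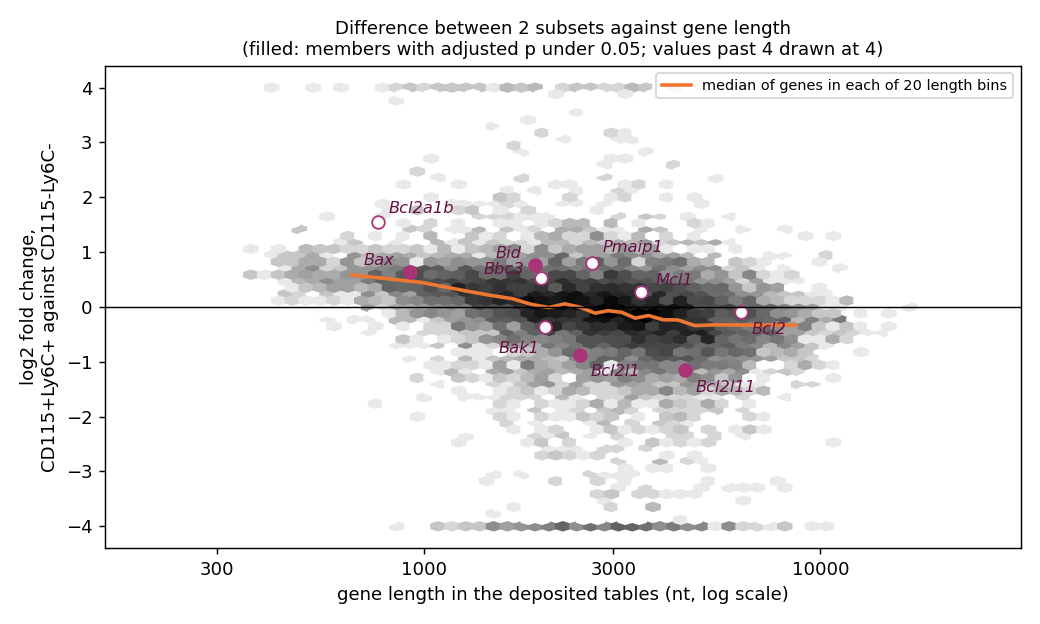
Log2 fold change of CD115+Ly6C+ against CD115-Ly6C- for the 12127 genes tested (grey, darker where more genes lie) against gene length in nucleotides on a log scale. The orange line is the median in bins of length, circles are the BCL2 family genes and filled circles passed the test. Bax lies close to the line, while Bid lies above it and Bcl2l1 and Bcl2l11 lie below it.

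Bak1 (chr17:27019812-27028627, minus strand), the other effector, was at 3.0 and 3.21 FPKM in CD115+Ly6C-, at 2.42 and 2.38 FPKM in CD115+Ly6C+ and at 3.18 and 3.92 FPKM in CD115-Ly6C-. The CD115+Ly6C+ libraries were the lowest and overlapped with no other. No comparison passed. The log2 fold change was -0.3 (SE 0.28, edgeR adjusted p = 0.531) against CD115+Ly6C- and -0.37 (SE 0.28, edgeR adjusted p = 0.318) against CD115-Ly6C-.

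Bid (chr6:120893119-120917062, minus strand) was the most abundant BH3-only transcript and was lower in CD115-Ly6C- than in both CD115+ subsets. Its product links death receptors to mitochondria once caspase-8 has cleaved it. Bid was at 166.35 and 149.52 FPKM in CD115+Ly6C-, at 150.29 and 159.71 FPKM in CD115+Ly6C+ and at 95.18 and 114.12 FPKM in CD115-Ly6C-. The 2 CD115+ subsets overlapped and both CD115-Ly6C- libraries lay below them. CD115+Ly6C- exceeded CD115-Ly6C- by 1.64-fold (log2 fold change of CD115-Ly6C- against CD115+Ly6C- -0.71, SE 0.13, 95% interval -1.01 to -0.41, edgeR adjusted p = 0.0107). CD115+Ly6C+ exceeded it by 1.69-fold (log2 fold change 0.76, SE 0.13, 95% interval 0.46 to 1.06, edgeR adjusted p = 0.00253). The latter passed in all 15 alternatives tried, with adjusted p of 1.07e-06 to 0.0219. The former was lost without CD115+Ly6C- replicate 1 (adjusted p = 0.0809) and without CD115-Ly6C- replicate 1 (adjusted p = 0.0895). Between the 2 CD115+ subsets the log2 fold change was 0.05, with a 95% interval of -0.25 to 0.34.

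Bcl2l11 (chr2:128126038-128162547, plus strand), which encodes BIM, was lower in CD115+Ly6C+ than in CD115-Ly6C-. The CD115+Ly6C+ libraries were at 1.19 and 1.53 FPKM, those of CD115-Ly6C- at 3.09 and 3.96 FPKM. The CD115+Ly6C- libraries, at 1.99 and 3.13 FPKM, lay above the former and overlapped with the latter. The fold between CD115-Ly6C- and CD115+Ly6C+ was 2.22 (log2 fold change -1.15, SE 0.28, 95% interval -1.8 to -0.5, edgeR adjusted p = 0.0132). Without CD115+Ly6C+ replicate 1 (adjusted p = 0.0679) or CD115-Ly6C- replicate 2 (adjusted p = 0.0598) it did not pass. Against CD115+Ly6C-, the value of CD115+Ly6C+ was -0.83 (SE 0.29, edgeR adjusted p = 0.0999), which passed with no filter on low counts (adjusted p = 0.0428).

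Bbc3 (chr7:16308398-16318334, plus strand), which encodes PUMA, was low everywhere and was lowest in CD115+Ly6C-. It was at 0.49 and 0.53 FPKM there, at 1.86 and 1.57 FPKM in CD115+Ly6C+ and at 1.49 and 1.23 FPKM in CD115-Ly6C-. The counts behind these levels were 17 and 18, 63 and 51, and 49 and 42. No library of CD115+Ly6C- overlapped with another subset. CD115+Ly6C+ exceeded CD115+Ly6C- by 3.54-fold (log2 fold change 1.82, SE 0.44, 95% interval 0.83 to 2.82, edgeR adjusted p = 0.0373). This was the only one of the 10 genes called in that comparison, and the call was lost when any 1 of the 6 libraries was left out (adjusted p 0.0559 to 0.167), with log2 fold changes of 1.72 to 1.92. With the length trend removed it was also lost (adjusted p = 0.0512). CD115-Ly6C- against CD115+Ly6C- gave 1.3 (SE 0.44, 95% interval 0.3 to 2.29, edgeR adjusted p = 0.0794), which passed in limma on log2(FPKM + 1) (adjusted p = 0.0231).

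Pmaip1, which encodes NOXA, a partner and antagonist of MCL1, differed more between the 2 libraries of a subset than between subsets. It was at 9.61 and 16.83 FPKM in CD115+Ly6C-, at 7.95 and 23.88 FPKM in CD115+Ly6C+ and at 6.26 and 14.66 FPKM in CD115-Ly6C-. Replicate 2 was the higher one each time, by 1.75, 3.0 and 2.34 times. Of the 12127 genes tested, 72 were over 1.5 times higher in replicate 2 of all 3 subsets and 54 were as much lower. No comparison between subsets passed, and the 95% interval for CD115+Ly6C+ against CD115-Ly6C- was -0.43 to 2.02 around a log2 fold change of 0.8 (edgeR adjusted p = 0.271). The labels do not tie equal replicate numbers to a shared animal or day.

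Summed by role, the pro-survival genes came to 66.8 to 86.8 FPKM per library, the effectors to 99.5 to 153 FPKM and the BH3-only genes to 106 to 187 FPKM. In each role 1 gene held most of the sum. After Bcl2 came Mcl1, with 12.3% to 20.3% of the pro-survival sum, and Bcl2l1, with 9.58% to 18.6%, in an order that varied. Bcl2l1 was ahead of Mcl1 in both CD115-Ly6C- libraries and in CD115+Ly6C- replicate 2, and behind it in the rest. Bid held 85.2% to 93.2% of the BH3-only sum, Pmaip1 4.93% to 12.8%, Bcl2l11 0.738% to 2.96% and Bbc3 0.275% to 1.41%. These are shares of transcript, and protein levels were not measured.

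**Figure D4:**
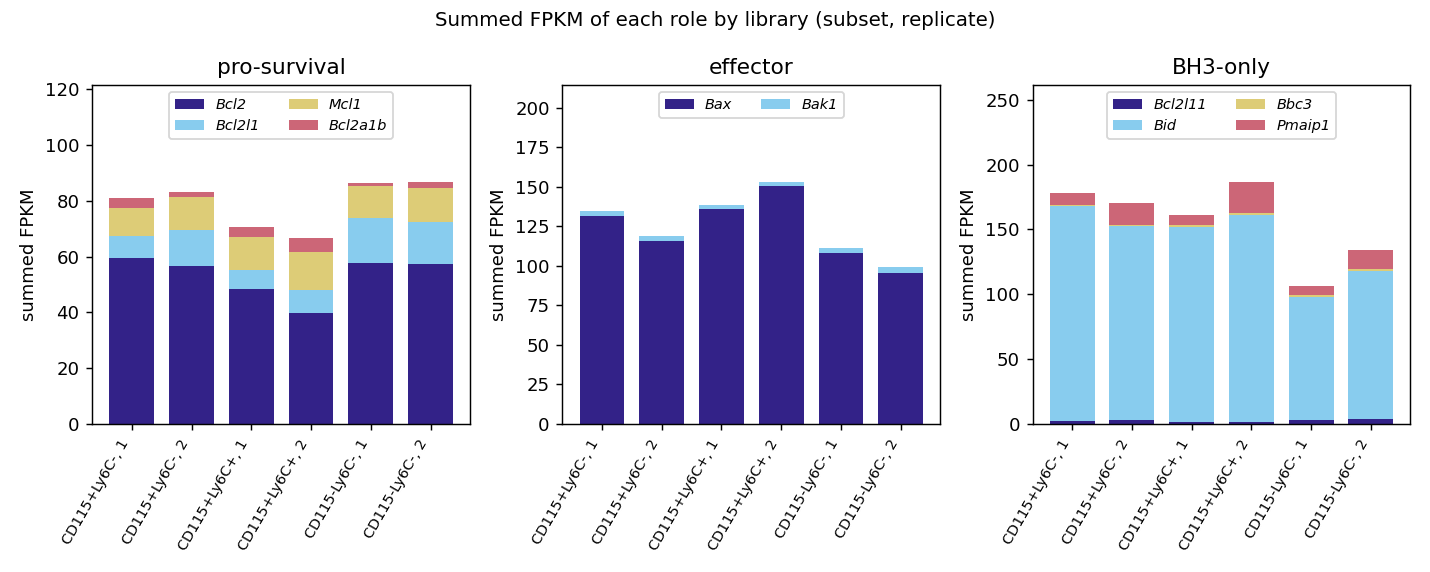
FPKM of the BCL2 family genes stacked within each role, 1 bar per library. Bcl2, Bax and Bid fill most of the pro-survival, effector and BH3-only bars, and the BH3-only bars of CD115-Ly6C- are the lowest.

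Further genes of the family were read from a list of 16, of which 15 were listed and 11 passed the filter. None of the 11 passed between CD115+Ly6C+ and CD115+Ly6C-. Between CD115+Ly6C+ and CD115-Ly6C-, 1 was higher (background 19.2%) and 2 were lower (background 20.1%). Bad, a BH3-only gene controlled by growth factor signals through phosphorylation of its product, was at 42.68 and 50.35 FPKM in CD115+Ly6C+ and at 30.19 and 33.76 FPKM in CD115-Ly6C-. Its log2 fold change was 0.69 (SE 0.17, edgeR adjusted p = 0.012). Without CD115+Ly6C+ replicate 2 or CD115-Ly6C- replicate 1, or with the length trend removed, Bad did not pass (adjusted p 0.0718, 0.0773 and 0.168). Bok, a further effector, was at 0.34 and 0.12 FPKM against 1.67 and 1.4 FPKM (log2 fold change -2.5, SE 0.67, edgeR adjusted p = 0.0176). It was lost without CD115+Ly6C+ replicate 2 (adjusted p = 0.116), CD115-Ly6C- replicate 1 (0.0942) or CD115-Ly6C- replicate 2 (0.0665).

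Bmf, a BH3-only gene linked to loss of attachment, had reads almost only in CD115-Ly6C-. It had 22 and 19 counts there. The CD115+Ly6C- libraries had 1 and 0, and those of CD115+Ly6C+ had 0 and 3. The ratio of summed counts, corrected for library size, was 42.4 over CD115+Ly6C- (exact 95% interval 7.19 to 1710) and 13.5 over CD115+Ly6C+ (4.31 to 68.3), intervals that cover counting error only. Both differences passed (edgeR adjusted p = 0.0357 and 0.0354), and each was lost on leaving out any 1 library of the subsets compared (adjusted p 0.101 to 0.191 and 0.0513 to 0.181). The first missed the threshold in limma on log2(FPKM + 1) (0.0687), and the second on leaving out a library of CD115+Ly6C- (0.0514 and 0.0524), in DESeq2 (0.0723), with no filter on low counts (0.067) and with the length trend removed (0.056). Bmf was the 1 gene of the list to differ between CD115-Ly6C- and CD115+Ly6C-, against 8.43% of all genes for that direction. Given how it passed the filter, nothing is concluded from setting it beside that share. Among the genes with no called difference, Bcl2l12 was at 47.27 to 59.59 FPKM, Bnip3l at 41.03 to 55.0 FPKM, Bnip3 at 34.3 to 45.31 FPKM, Bcl2l13 at 8.1 to 11.34 FPKM and Bcl2l14 at 3.75 to 5.98 FPKM. Bcl2l2 (BCL-W) reached at most 0.91 FPKM, Bik 1.18 FPKM, Bcl2l15 0.16 FPKM and Hrk 0.06 FPKM.

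Genes that act below and above the BCL2 family were read from 6 further lists. Of 16 genes of the apoptosome, caspases and mitochondrial release, 4 were higher and 1 lower in CD115+Ly6C+ than in CD115-Ly6C-. Their median log2 fold change was 0.1, beside -0.03 over all genes. Scaled by library totals alone it was -0.09, beside -0.22 over all genes. Over all genes 19.2% were higher and 20.1% lower. Without CD115+Ly6C+ replicate 2 or CD115-Ly6C- replicate 2, 2 of the 4 were left. The 4 included Cycs, which encodes cytochrome c, released through the pores of BAX and BAK, at 143.46 and 174.57 FPKM against 81.61 and 89.53 FPKM (log2 fold change 1.09, SE 0.14, edgeR adjusted p = 0.000597). Vdac3, a channel of the outer mitochondrial membrane, also rose (log2 fold change 0.59, edgeR adjusted p = 0.00287). Casp2, an initiator caspase, was the 1 lower gene, at 35.15 and 37.56 FPKM against 72.08 and 66.9 FPKM (log2 fold change -0.74, edgeR adjusted p = 0.00139). Between CD115-Ly6C- and CD115+Ly6C- the only gene of this list to pass was Cycs, which was lower (log2 fold change -0.69, edgeR adjusted p = 0.0144), and did not pass without CD115+Ly6C- replicate 1 (0.104) or CD115-Ly6C- replicate 1 (0.107). Between CD115+Ly6C+ and CD115+Ly6C- it was Casp2, also lower (log2 fold change -0.48, edgeR adjusted p = 0.0356), a call that leaving out any single library of these 2 subsets ended (adjusted p 0.0854 to 0.15), as did removing the length trend (0.0832).

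Bax, Bbc3 and Pmaip1 are known targets of p53, and 20 other genes of p53 and its targets were listed, 18 of them tested. Between CD115+Ly6C+ and CD115-Ly6C-, 6 were lower (background 20.1%) and 1 was higher (19.2%), with a median of -0.47. Under library totals 12 were lower, in a fit where the median of all genes was -0.22. The lower ones were led by Trp53inp1, at 2.62 and 2.91 FPKM against 15.8 and 15.59 FPKM (log2 fold change -2.31, SE 0.18, edgeR adjusted p = 5.59e-05), and Sesn1, a stress-response gene, at 32.24 and 36.35 FPKM against 103.31 and 86.71 FPKM (log2 fold change -1.27, edgeR adjusted p = 0.00013). Gtse1, which is expressed in dividing cells and restrains p53, was the higher one (log2 fold change 0.89, edgeR adjusted p = 0.00252). Bax, the p53 target of the family with a called difference there, was higher like Gtse1, a call lost with the length trend removed. Whether p53 has a part in these differences was not tested. Between CD115+Ly6C+ and CD115+Ly6C-, 3 of the 18 were lower (median -0.21, background 4.34%). They were Cdkn1a, Xpc and Sesn1, and without any 1 library of these 2 subsets only Cdkn1a was left (adjusted p of Xpc 0.0636 to 0.0972 and of Sesn1 0.0796 to 0.157). Cdkn1a, the cell cycle inhibitor p21, was at 13.9 and 14.34 FPKM against 33.33 and 29.44 FPKM (log2 fold change -1.08, edgeR adjusted p = 0.00428), while Bbc3 was higher. Between CD115-Ly6C- and CD115+Ly6C-, 3 were higher (background 8.43%) and 1 lower (6.78%), with a median of 0.29. On leaving out CD115-Ly6C- replicate 1, or any library of CD115+Ly6C-, 2 were higher and none lower. The signs of these 3 medians held under both other scalings.

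The FoxO factors, which activate Bcl2l11 and Bbc3, and the PI3K-AKT regulators around them were a list of 15. Of these, CD115+Ly6C+ had 4 lower and none higher than CD115-Ly6C-, against 20.1% and 19.2% of all genes. None of the 4 was a FoxO factor, though a FoxO factor was also lower under library totals and in limma on log2(FPKM + 1). The median of the list was -0.35, and -0.08 with the length trend removed. Without CD115+Ly6C+ replicate 2 or CD115-Ly6C- replicate 1, 1 was lower, and with the length trend removed 1 was lower and 1 higher. The clearest was Inpp5d, the lipid phosphatase SHIP1, at 33.66 and 28.6 FPKM against 77.31 and 68.19 FPKM (log2 fold change -1.03, edgeR adjusted p = 0.000361). Inpp5d was also the 1 gene of the list lower in CD115+Ly6C+ than in CD115+Ly6C- (log2 fold change -0.57, edgeR adjusted p = 0.0228) and, at 0.46 (edgeR adjusted p = 0.035), the 1 of which CD115-Ly6C- had more than CD115+Ly6C-. The former was lost without either CD115+Ly6C- library (adjusted p 0.0824 and 0.095) or CD115+Ly6C+ replicate 2 (0.126), and the latter without any 1 library of its subsets (0.0652 to 0.224). Both were lost with the length trend removed (0.0633 and 0.0715). Of 9 tested genes for turnover of MCL1 and BIM protein, 1 was higher (background 19.2%) and 2 were lower (20.1%) in CD115+Ly6C+ than in CD115-Ly6C-. Under library totals 5 were lower. Dynll1, a dynein light chain that binds BIM, was the higher one (log2 fold change 0.47, edgeR adjusted p = 0.0205, and 0.125 under library totals), and it was lost without either CD115-Ly6C- library (0.0631 and 0.107) or CD115+Ly6C+ replicate 1 (0.0965). Ddb1, an adaptor of a ubiquitin ligase, was lower (log2 fold change -0.65, edgeR adjusted p = 0.00232), and it was the 1 gene of this list called between CD115+Ly6C+ and CD115+Ly6C-. There its log2 fold change was -0.51 (edgeR adjusted p = 0.0276, and 0.0769 to 0.136 without any 1 library of these subsets, and 0.0712 with the length trend removed).

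Of 7 tested inhibitors of apoptosis proteins, which bind caspases, Naip2 was higher in CD115+Ly6C+, at 2.16 and 2.72 FPKM against 0.48 and 0.9 FPKM in CD115-Ly6C- (log2 fold change 2.01, edgeR adjusted p = 0.00382) and 0.8 and 0.57 FPKM in CD115+Ly6C- (log2 fold change 1.89, edgeR adjusted p = 0.0201, and 0.0516 to 0.103 without any 1 library of these subsets). NAIP proteins are better known as sensors of bacterial proteins. Birc2 (cIAP1) was lower in CD115+Ly6C+ than in CD115-Ly6C- (log2 fold change -0.51, edgeR adjusted p = 0.0182), and not so without either CD115+Ly6C+ library (0.0602 and 0.0823) or CD115-Ly6C- replicate 2 (0.155), nor with the length trend removed (0.0722). Of 9 death receptor genes, which act on BID, Tnfrsf1a, the main TNF receptor, was at 45.38 and 41.4 FPKM in CD115+Ly6C+, above CD115-Ly6C- (log2 fold change 0.83, edgeR adjusted p = 0.0111) and CD115+Ly6C- (log2 fold change 0.85, edgeR adjusted p = 0.0332). The first call was lost without CD115-Ly6C- replicate 2 (0.0614), the second without either CD115+Ly6C+ library (0.113 and 0.101) or CD115+Ly6C- replicate 1 (0.194), and in limma on log2(FPKM + 1) (0.0515). Tnfrsf1b and Cflar, the caspase-8 inhibitor FLIP, were lower in CD115+Ly6C+ than in CD115-Ly6C- (log2 fold change -0.62 and -0.38, edgeR adjusted p = 0.0138 and 0.0388). Tnfrsf1b did not pass without CD115+Ly6C+ replicate 2 (0.0808) or CD115-Ly6C- replicate 1 (0.0908), and Cflar not without any 1 library of these subsets (0.0751 to 0.168). With the length trend removed neither passed (0.108 and 0.524). Between CD115+Ly6C+ and CD115-Ly6C-, 1 of the 7 was thus higher and 1 lower, and 1 of the 9 was higher and 2 lower. Over all genes 19.2% were higher and 20.1% lower there. Between CD115+Ly6C+ and CD115+Ly6C-, 1 gene of each list was higher and none lower, against 5.26% and 4.34% of all genes. No gene of these 2 lists passed between CD115-Ly6C- and CD115+Ly6C-, where 15.2% of all genes did.

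The genes whose pattern over the 6 libraries was most like that of each called family gene were found by the root mean square difference of log2 CPM, each gene centred on its own mean. For Bid they were Rad54b (0.0289), Ddias (0.0302) and Mcm10 (0.0397). Rad54b, for example, was at 23.12 and 21.13, 21.25 and 21.32, and 13.29 and 16.21 FPKM in CD115+Ly6C-, CD115+Ly6C+ and CD115-Ly6C-. For Bax they were Htra2 (0.0236), Lamtor3 (0.0356) and Wbp4 (0.0466), and for Bcl2l1 they were Lamc1 (0.0517), Slamf6 (0.0821) and Zbtb2 (0.089). For Bcl2l11 they were Pfkfb2 (0.0939), Dsel (0.113) and Mfsd9 (0.116). For Bbc3 the nearest were farther off, Dapk3 at 0.14, Tbkbp1 at 0.21 and Fam20c at 0.223. These are descriptions over 6 libraries from 3 subsets, chosen as the nearest among all genes tested with a name in RefSeq.

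The 6 called differences of the family held to different degrees when libraries or settings were changed. Bid between CD115+Ly6C+ and CD115-Ly6C- passed throughout, and Bax there passed in all but the fit with the length trend removed. The calls for Bcl2l1, for Bcl2l11 and for Bid between CD115-Ly6C- and CD115+Ly6C- each passed in 13 of 15 alternatives. Bbc3 passed in 7 of 15.

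**Figure D5:**
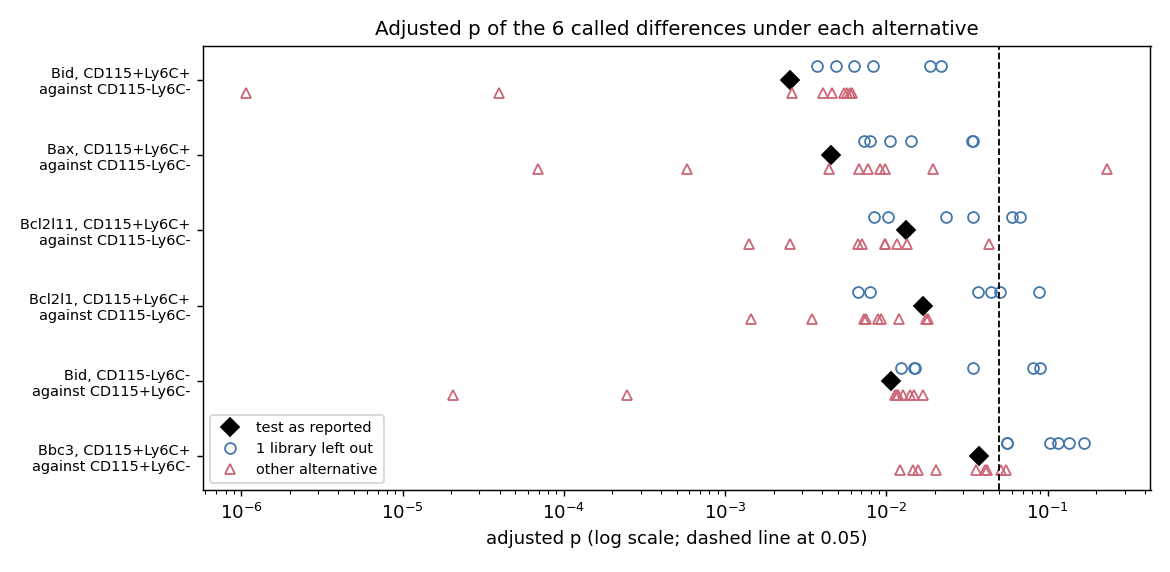
Adjusted p (log scale) of the 6 called differences as reported (black diamonds), with 1 library left out (blue circles) and under the other alternatives (red triangles), with a dashed line at 0.05. The circles of Bbc3 lie all to the right of the line and those of Bid between CD115+Ly6C+ and CD115-Ly6C- all to the left.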

How the data were processed

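RNA was measured in 6 libraries, 2 of each sorted subset. Per the submitters' processing notes, Bowtie2 and RSEM were used with the mouse build mm10. Neither versions nor settings are given in the sources used here. The tables the authors deposited hold, per the file headers, expected counts (estimated, so 12.6% of those above 0 were not whole at a tolerance of 1e-06) and FPKM. A gene not listed in a library was taken as 0. Coordinates come from RefSeq (GRCm38.p6, the assembly of mm10), counted from 1, and 15332 of the 16135 genes matched it.

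Expected counts were rounded. The test was edgeR's quasi-likelihood F test (edgeR 4.0.16, R 4.3.3) after filterByExpr (minimum count 10, minimum total 15) and TMM scaling, in 1 fit of all 6 libraries with a coefficient per subset. P-values were adjusted by the Benjamini-Hochberg method over 12127 genes, with a threshold of 0.05. A standard error is the log2 fold change over the square root of F. The common dispersion was 0.0231, with 3 residual degrees of freedom. The script was tested on simulated data. No label mentions molecular identifiers, so intervals on counts cover counting error only. Alternatives were DESeq2 1.42.0, limma 3.58.1 on log2(FPKM + 1) and log2(FPKM + 0.1), other scalings, no filter, removal of the length trend, a replicate block, only the subsets compared, and each library left out.

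The genes and lists were chosen with earlier results of these data known. All 10 family genes are named. Of each further list, at most the 2 genes with the smallest adjusted p in each direction are named, together with every further family gene. Patterns like a family gene were sought among genes that RefSeq names, leaving out predicted models.

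Chi-square per degree of freedom between the 2 libraries of a subset was 19.6 to 22.3, so none is a copy of another. 1 gene of the monocyte list is not reported here, and its sums leave it out.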

Additional observations from a re-analysis of the deposited data

How the results depend on the processing

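Of the 10 genes, 0 were called between CD115+Ly6C+ and CD115+Ly6C- with a replicate block or with the length trend removed (715 of all genes in the latter fit, beside 1164). There were 2 with library totals, with no filter on low counts (1810 of all genes) and in DESeq2 (1812 of all genes). Between CD115-Ly6C- and CD115+Ly6C-, 2 were called in limma on log2(FPKM + 1) and 2 on log2(FPKM + 0.1). Between CD115+Ly6C+ and CD115-Ly6C-, these limma fits called 6 each, the fit with no filter 5 and the fit with the length trend removed 3. Leaving out 1 library gave 0 of the 10 and 220 to 1139 of all genes for CD115+Ly6C+ against CD115+Ly6C-. It gave 0 to 1 and 485 to 1744 (1844 with all libraries) for CD115-Ly6C- against CD115+Ly6C-, and 2 to 4 and 2983 to 4632 (4768 with all libraries) for CD115+Ly6C+ against CD115-Ly6C-. A subset left with 1 library was assumed to vary like the others. The lowest counts of all genes came without CD115+Ly6C- replicate 1 in the first comparison, CD115-Ly6C- replicate 1 in the second and CD115+Ly6C+ replicate 2 in the third, where the 2 of the 10 came without CD115+Ly6C+ replicate 1.

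None of the values that changed sign passed the threshold. Bid between the CD115+ subsets was -0.02 with library totals, -0.03 in both limma fits, -0.02 with the length trend removed and -0.04 to 0.13 with 1 library left out. Mcl1 in CD115-Ly6C- against CD115+Ly6C- was -0.04 with the length trend removed and -0.08 to 0.15 with 1 library left out. In the same comparison the values with 1 library left out ran from -0.1 to 0.24 for Bak1, from 0.0 to 0.71 for Bcl2l11 and from -1.22 to 0.05 for Pmaip1. Pmaip1 in CD115+Ly6C+ ran from -0.68 (without its replicate 2) to 0.94 against CD115+Ly6C- and from -0.23 to 1.57 against CD115-Ly6C-. Bcl2 in the last comparison ran from -0.21 to 0.01, and was 0.22 with the length trend removed. The causes were not tested.

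Scaling by library totals alone moved the median of all genes to -0.08, 0.14 and -0.22 in the 3 comparisons and the share of called genes that were higher in the first subset from 54.8%, 55.4% and 48.9% to 38.4%, 74.3% and 30.2%. In limma on log2(FPKM + 1) the last 2 shares were 72.7% and 32.9%. The same genes of the family were called under library totals in the latter 2 comparisons.

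The labels number the 2 libraries of each subset without saying what a number shares. Deviations of equal numbers correlated at 0, -0.01 and 0.15 over genes, so the block on the replicate number is given as an alternative only. In CD115+Ly6C+ against CD115-Ly6C- it called 5 of the 10, adding Pmaip1 (adjusted p = 0.0266), and in CD115-Ly6C- against CD115+Ly6C- it called 1. Of the genes named from the further lists, it ended the calls of Bmf in both comparisons (adjusted p = 0.0595 and 0.0585), of Sesn1 between the CD115+ subsets (0.0544) and of Inpp5d between CD115-Ly6C- and CD115+Ly6C- (0.0532). With 2 libraries per subset, a low count such as that of Bbc3 or Bcl2a1b leaves wide intervals.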
